A study of Homo sapiens with 6 samples.

Results

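Double-stranded RNA in the cytoplasm or in endosomes is a sign of viral infection or of transcribed repeats, and cells read it with a small set of proteins. The measurements described here are those of 10 genes of this system in BT-549 cells, a human triple-negative breast cancer cell line, chosen by symbol from the 37887 rows of a raw-count table. They are 7 sensors (DDX58, IFIH1, DHX58, TLR3, EIF2AK2, ZBP1 and DDX60), 2 adaptors (MAVS and TICAM1) and the editing enzyme ADAR. All 10 symbols were found.

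The 6 libraries were bulk RNA-seq of BT-549 cells with a short hairpin RNA, which the series text describes as doxycycline-inducible. They were 3 of the control group (shCTL, vehicle, 0.1% DMSO) and 3 of the PBRM1-silenced group (shPBRM1, 500 ng/ml doxycycline). PBRM1 encodes BAF180, a subunit of the PBAF chromatin remodeling complex. The sample titles name a control hairpin, while the series text describes a single line carrying the PBRM1 hairpin and given vehicle or doxycycline. Either way, doxycycline and silencing cannot be told apart. If the controls were a separate line with a control hairpin, the line and silencing cannot be told apart either. The libraries of a group came from cells grown in triplicate, no source says more of how separate the cultures were, and p-values measure the spread between these libraries only.

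Total counts were between 36429395 and 65096297 per library, and 3 counts corresponded to between 0.0471 and 0.0804 CPM, the counts scaled to a common library size. PBRM1 itself fell from 158 ± 2.30 to 41.9 ± 1.22 CPM (SD, n = 3), which left 26.5% of the shCTL level (edgeR quasi-likelihood adjusted p = 9.98e-23). The mesenchymal genes VIM and FN1 were expressed in all libraries, although FN1 fell by 1.33 on the log2 scale. Of the receptors that define triple-negative cells, ESR1 had at most 2 counts and PGR at most 12, and ERBB2 stood at 51.3 ± 1.10 CPM in shCTL libraries with a log2 fold change of -0.04. None of 8 markers of immune and endothelial cells exceeded 44 counts in a library, and CD3E and MS4A1 were at 0 in all 6. Their summed level was 1.15 to 1.76 CPM in shCTL and 0.899 to 0.957 CPM in shPBRM1 libraries. Of the 2 that could be tested, PTPRC (CD45) had 26, 40 and 44 counts in shCTL and 12, 4 and 6 in shPBRM1 libraries and was called lower, and CD14 had 9, 23 and 14 against 36, 29 and 44 and was called higher, and their part in the results was not tested. In bulk libraries, fewer cells that express a gene and less RNA per cell cannot be told apart.

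As background, RIG-I (DDX58) and MDA5 (IFIH1) are cytoplasmic helicases that bind double-stranded RNA and signal through the mitochondrial adaptor MAVS, and LGP2 (DHX58) is a relative without signaling domains that modulates them. TLR3 binds double-stranded RNA in endosomes and signals through the adaptor TRIF (TICAM1). PKR (EIF2AK2) is a kinase that is activated by double-stranded RNA and blocks translation, ZBP1 binds Z-form nucleic acids and can start necroptosis, and DDX60 is a helicase described as a cofactor of the RIG-I-like receptors. ADAR edits adenosine to inosine in double-stranded RNA and thereby keeps cellular RNA from being sensed. Many of these genes are themselves induced by interferon, through sites known as interferon-stimulated response elements (ISRE).

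The promoter letters are shown first, because they are a feature of the members that played no part in choosing them. RefSeq promoter windows (GRCh38.p14, 250 bases before to 50 after the transcription start) were used for the 8 members other than DHX58 and ZBP1, with 3 windows for ADAR and DDX58 entered under its current symbol RIGI. They were searched on both strands for the ISRE core GAAANNGAAA and for the shorter and overlapping letters AANNGAAA, named IRF core here, which were chosen after these sequences were seen. The ISRE core occurred in 3.57% of all 35116 promoter windows of the same length, and in at least 1 window of 4.38% of 27305 genes. It occurred in 4 of the 8 members, IFIH1, TLR3, EIF2AK2 and DDX60. The IRF core occurred in 22.8% of all windows and in at least 1 window of 26.7% of the genes. Among the members, the same 4 and DDX58 held it. MAVS, TICAM1 and ADAR held neither in their windows.

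The stretches that hold the matches are printed 5′ to 3′ on the strand of the gene, with the matched letters in capitals, which mark the ISRE core in IFIH1, TLR3, EIF2AK2 and DDX60 and the IRF core in DDX58. They lie at chr2:162318685-162318867 (IFIH1, minus strand), chr4:186069128-186069161 (TLR3, plus strand), chr2:37156977-37157010 (EIF2AK2, minus strand), chr4:168318772-168318864 (DDX60, minus strand) and chr9:32526301-32526422 (DDX58, minus strand).
IFIH1: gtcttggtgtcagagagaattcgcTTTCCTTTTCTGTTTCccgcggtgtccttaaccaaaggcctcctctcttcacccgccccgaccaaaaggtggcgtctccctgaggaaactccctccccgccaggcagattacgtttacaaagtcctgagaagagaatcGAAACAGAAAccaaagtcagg
TLR3: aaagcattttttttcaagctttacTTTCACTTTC
EIF2AK2: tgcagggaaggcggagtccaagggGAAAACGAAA
DDX60: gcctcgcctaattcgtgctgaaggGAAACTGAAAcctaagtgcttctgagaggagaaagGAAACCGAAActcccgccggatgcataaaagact
DDX58: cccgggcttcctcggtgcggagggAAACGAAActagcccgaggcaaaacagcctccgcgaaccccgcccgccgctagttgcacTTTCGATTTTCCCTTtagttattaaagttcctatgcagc
IFIH1 carried 3 ISRE core matches, of which the distal pair overlapped by 4 bases on the opposite strand. DDX60 carried a pair of separate matches at 88 and 53 bases before the start. In TLR3 and in EIF2AK2 the single match spanned the start site. A match of letters is a description of the window, not a measured binding site, and the absence of a match says only that these letters were not in it.

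**Figure D1:**
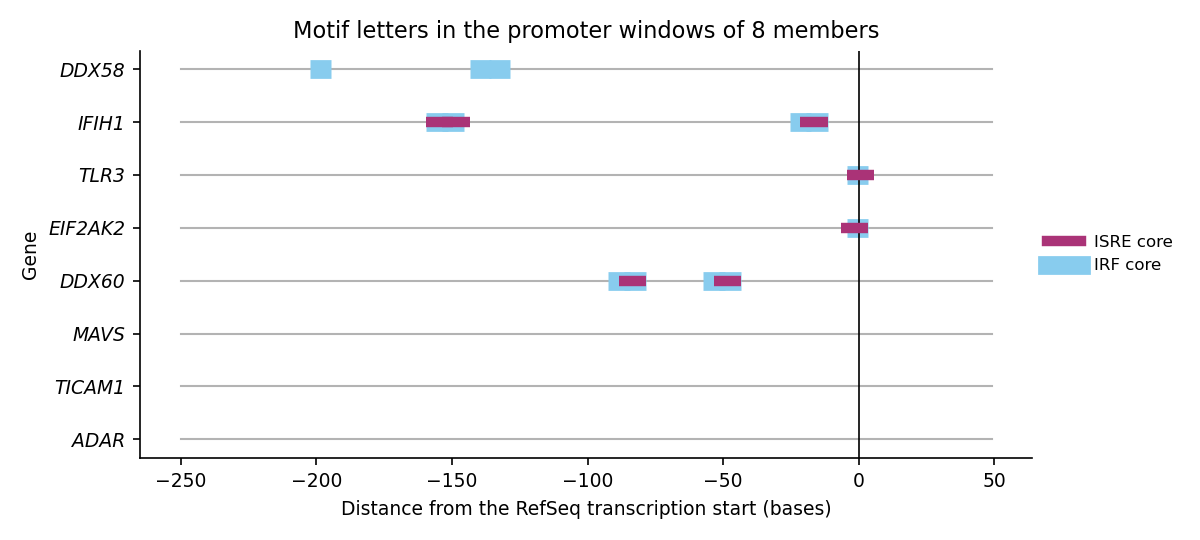
Positions of the ISRE core and IRF core letters in the RefSeq promoter windows of 8 members, with the distance from the transcription start in bases on the x axis and a grey line for each window. Matches lie in IFIH1, TLR3, EIF2AK2, DDX60 and DDX58, and the lines of MAVS, TICAM1 and ADAR carry none.

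Between the groups, 7 of the 9 members that could be tested fell by more than 2-fold and none rose. They were DDX58, IFIH1, DHX58, TLR3, EIF2AK2 and DDX60 among the sensors, and the editing enzyme ADAR. Both adaptors had lower means with small adjusted p-values but changed by less than 2-fold. Calls needed more than a 2-fold change and an adjusted p under 0.05, from the quasi-likelihood test of edgeR. By that rule 9.68% of the 15450 genes tested were lower and 2.87% were higher, and by the adjusted p alone 33.2% were lower and 31.5% higher. ZBP1 did not reach the count filter, so that the called genes are 7 of 10 members in all. In all 10 members the highest shPBRM1 library lay under the lowest shCTL library, a separation in this direction that 35% of all genes tested showed. The median log2 fold change was -3.02 over the 9 tested members and -0.0080 over all genes tested.

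Of the RIG-I-like receptors, IFIH1 (MDA5; chr2:162267079-162318703, minus strand, GENCODE positions on GRCh38 here and below) changed most of all the members. Its counts were 4968, 6977 and 7360 in shCTL libraries 1 to 3 and 174, 198 and 231 in shPBRM1 libraries 1 to 3. These were 133, 144 and 146 CPM against 2.90, 5.09 and 3.62 CPM. The groups were far apart, while the 3 silenced libraries differed among themselves more than the controls did, in proportion to their mean. The log2 fold change was -5.24 (SE 0.237, 95% interval -5.41 to -5.06, adjusted p = 1.26e-23), or 37.7-fold, which left 2.75% of the shCTL level. The interval is narrower than this SE would give, and the change ranged from -5.42 to -5.06 under the alternatives described below.

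DDX58 (RIG-I; chr9:32455705-32526324, minus strand) stood at 17.4, 15.1 and 16.8 CPM in shCTL and at 1.82, 2.13 and 1.35 CPM in shPBRM1 libraries. The raw counts behind these were 648 to 845 and 83 to 109. DDX58 fell by 3.25 on the log2 scale (SE 0.198, 95% interval -3.49 to -3.00, adjusted p = 9.86e-17), leaving 10.8%. The groups did not overlap, and the silenced libraries again had the wider relative spread.

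DHX58 (LGP2; chr17:42101404-42112733, minus strand) was at 16.9, 17.7 and 15.8 CPM in shCTL and at 1.98, 2.18 and 2.06 CPM in shPBRM1 libraries. It fell by 3.02 on the log2 scale (SE 0.063, 95% interval -3.22 to -2.82, adjusted p = 7.31e-18), an 8.13-fold difference. The 3 silenced libraries were close together here. The 95% intervals of DHX58 and DDX58 overlapped, and that of IFIH1 lay under both.

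The ratio of IFIH1 to DDX58, per kilobase of exon, therefore differed between the groups, at 6.53, 8.11 and 7.42 in shCTL and 1.36, 2.03 and 2.29 in shPBRM1 libraries. MDA5 transcripts outnumbered RIG-I transcripts in every library, by more in each control than in any silenced one. The ratio of DHX58 to IFIH1 was 0.159 ± 0.0133 in shCTL and 0.744 ± 0.169 in shPBRM1 libraries (SD, n = 3). The ratio of DHX58 to DDX58 was 1.17 ± 0.145 in shCTL and 1.37 ± 0.307 in shPBRM1 libraries, and its values overlapped between the groups.

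DDX60 (chr4:168216293-168318807, minus strand), the helicase cofactor, was at 259, 253 and 265 CPM in shCTL and at 23.6, 22.4 and 21.3 CPM in shPBRM1 libraries. It fell by 3.53 on the log2 scale (SE 0.048, 95% interval -3.62 to -3.44, adjusted p = 3.67e-26), leaving 8.65%. The 3 libraries of each group were close together and the groups far apart. Its close relative DDX60L moved in the same direction, from 241 ± 4.20 to 12.7 ± 1.27 CPM (log2 fold change -4.24, adjusted p = 2.66e-26). How reads matching both genes were counted is not given in the sources used here, so that their separate values are uncertain to that extent.

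TLR3 (chr4:186069152-186088069, plus strand), the endosomal sensor, was at 16.3, 16.5 and 17.8 CPM in shCTL and at 1.20, 1.18 and 0.753 CPM in shPBRM1 libraries. The counts were 608, 800 and 899 against 72, 46 and 48. TLR3 fell by 4.04 on the log2 scale (SE 0.215, 95% interval -4.30 to -3.78, adjusted p = 3.96e-18), leaving 6.20%. The groups did not overlap, and the third silenced library was the lowest.

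EIF2AK2 (PKR; chr2:37099210-37157065, minus strand), the most abundant sensor, was at 571, 556 and 602 CPM in shCTL and at 166, 163 and 166 CPM in shPBRM1 libraries. It fell by 1.80 on the log2 scale (SE 0.035, 95% interval -1.89 to -1.72, adjusted p = 1.53e-20), leaving 28.6%. The silenced libraries were nearly alike. EIF2AK2 had the smallest change of the 6 tested sensors, and its interval did not reach that of any other. It shares 401 exon bases (3.73% of its exon length) with an antisense processed pseudogene and 35 (0.325%) with GPATCH11, and whether counting used the strand is not stated. No other member shared exon bases with another annotated gene.

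ZBP1 (chr20:57603846-57620576, minus strand) was counted 4, 14 and 10 times in shCTL libraries 1 to 3 and 0 times in each shPBRM1 library. Against a floor of 3 counts per library, the shCTL mean of 0.198 ± 0.0904 CPM (SD, n = 3) was 3.41-fold above the level the silenced libraries allow. This value leaves out the spread of the controls, of which library 1 was at 0.107 CPM, so it is not a firm lower bound. At these counts ZBP1 was near the limit of detection in the control cells too, and it was not tested.

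**Figure D2:**
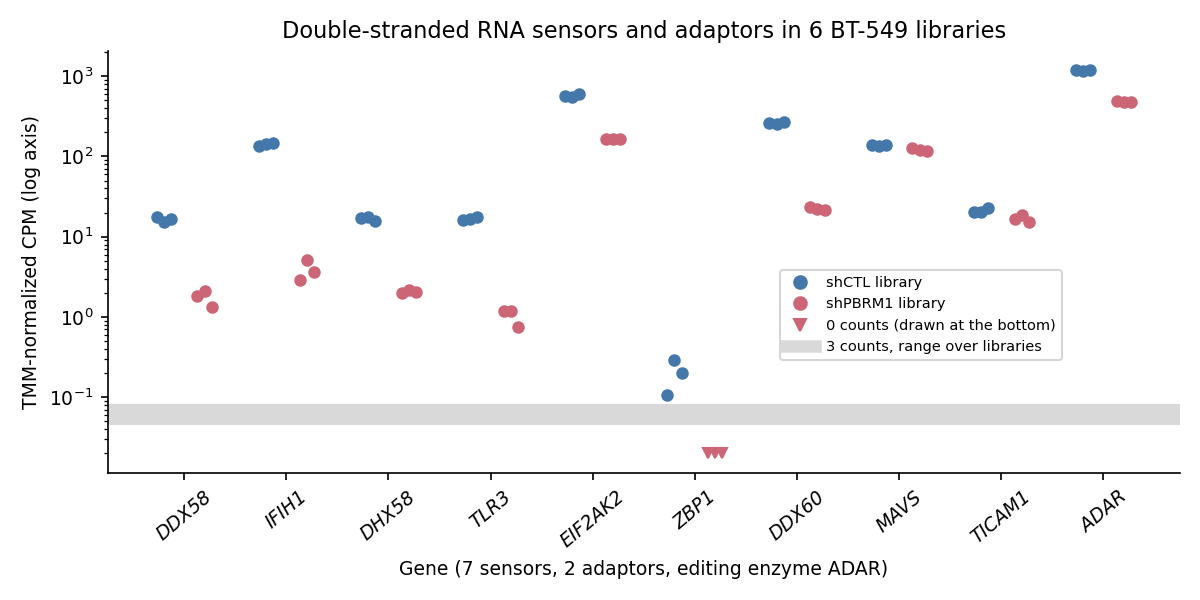
TMM-normalized CPM (log axis) of the 10 members in the 6 libraries, blue for shCTL and red for shPBRM1, with a grey band at the level of 3 counts per library and triangles for libraries with 0 counts. The sensors are well separated between the groups, whereas MAVS (137 and 121 CPM) and TICAM1 (21.0 and 16.9 CPM) lie close together, without overlap.

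The adaptors behaved otherwise. MAVS (chr20:3846799-3876123, plus strand), on which RIG-I and MDA5 converge, was at 139, 135 and 139 CPM in shCTL and at 126, 119 and 118 CPM in shPBRM1 libraries. Its log2 fold change was -0.18 (SE 0.031, 95% interval -0.25 to -0.11, adjusted p = 0.000104), leaving 88.2%. The groups were separate but near each other.

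TICAM1 (TRIF; chr19:4815932-4831704, minus strand), the adaptor of TLR3, was at 20.3, 20.1 and 22.7 CPM in shCTL and at 16.8, 18.5 and 15.3 CPM in shPBRM1 libraries. Its log2 fold change was -0.33 (SE 0.096, 95% interval -0.48 to -0.17, adjusted p = 0.000509), leaving 80.2%. The highest silenced library lay just under the lowest control. Both adaptors thus had lower levels by the adjusted p alone, a result that 33.2% of all genes tested share, and the intervals of both stayed well inside a 2-fold change.

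ADAR (chr1:154582057-154628013, minus strand), the editing enzyme, was the most abundant member in all libraries, at 1195, 1175 and 1188 CPM in shCTL and 496, 479 and 482 CPM in shPBRM1 libraries. It fell by 1.29 on the log2 scale (SE 0.017, 95% interval -1.36 to -1.21, adjusted p = 6.1e-19), leaving 41.0%. The 3 libraries of each group were within a few percent of each other. ADAR has a longer form made from an interferon-inducible promoter and a shorter constitutive form, and gene-level counts pool them, so the forms were not told apart.

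**Figure D3:**
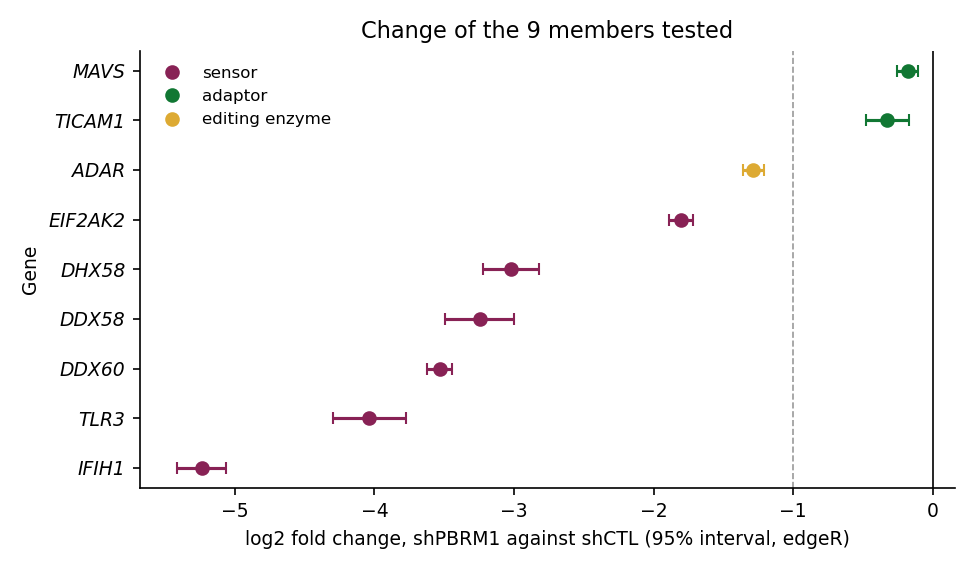
Log2 fold change of the 9 tested members, shPBRM1 against shCTL, with approximate 95% intervals from edgeR and a dashed line at a 2-fold decrease. The 6 sensors lie between -5.24 and -1.80, ADAR at -1.29, and the adaptors TICAM1 and MAVS at -0.33 and -0.18.

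Set side by side, the classes kept apart. The median log2 fold change was -3.39 for the 6 tested sensors (range -5.24 to -1.80), -1.29 for ADAR and -0.25 for the adaptors. No approximate interval of a sensor reached that of ADAR or of an adaptor. Under the alternatives described below, EIF2AK2, the sensor nearest to ADAR, ranged from -1.85 to -1.77, and ADAR from -1.34 to -1.27. In each library, the mean log2 CPM of the 7 sensors was set against that of the adaptors. The difference, sensors minus adaptors, was -0.92, -0.73 and -0.87 in shCTL and -3.94, -3.83 and -3.95 in shPBRM1 libraries. Its mean moved from -0.84 ± 0.094 to -3.91 ± 0.070 (SD, n = 3), by -3.07 on the log2 scale. The same comparison with ADAR gave -5.30 ± 0.094 and -7.33 ± 0.14 for sensors minus ADAR, and 4.46 ± 0.053 and 3.43 ± 0.075 for ADAR minus adaptors. ADAR therefore took a place between the classes in the size of its change. No p is given for these class values, because the members were chosen with results of these data known.

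Levels of different genes were compared as CPM per kilobase of annotated exon. In shCTL libraries the order from high to low was ADAR (122 ± 1.05), EIF2AK2 (53.6 ± 2.17), DDX60 (38.4 ± 0.838), IFIH1 (27.6 ± 1.33), MAVS (11.7 ± 0.194), TICAM1 (7.86 ± 0.546), DHX58 (4.37 ± 0.257), DDX58 (3.77 ± 0.272), TLR3 (2.51 ± 0.125) and ZBP1 (0.0366). No neighbors in this order had overlapping values. Without the length, DHX58, DDX58 and TLR3 overlapped in these libraries, at means of 16.8, 16.4 and 16.9 CPM. Their order thus rests on the annotated exon lengths of 3.843, 4.353 and 6.724 kb. In shPBRM1 libraries ADAR (50.1 ± 0.947) and EIF2AK2 (15.4 ± 0.185) stayed in front. MAVS (10.3 ± 0.341) and TICAM1 (6.30 ± 0.586) followed, ahead of DDX60 (3.32 ± 0.176) and IFIH1 (0.758 ± 0.218). DHX58 (0.540 ± 0.0266), DDX58 (0.406 ± 0.0905), TLR3 (0.155 ± 0.0376) and ZBP1 (0 counts) came last, and only IFIH1 and DHX58 overlapped among neighbors.

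The exchange of places involved 4 members. Per kilobase of exon, MDA5 and DDX60 transcripts were above both adaptors in every control library and under both in every silenced one. The ratio of IFIH1 to MAVS per kilobase was 2.21, 2.46 and 2.43 in shCTL and 0.0531, 0.0982 and 0.0706 in shPBRM1 libraries. Per kilobase, the sensor was thus the more abundant of this pair in the controls and the far less abundant in the silenced cells. Without the length, IFIH1 and MAVS were close in the controls, at means of 141 and 137 CPM. In shCTL library 1 IFIH1 was the lower, at 133 against 139 CPM. The control order of this pair thus rests on the annotated exon lengths of 5.108 kb for IFIH1 and 11.771 kb for MAVS. Without the length, DDX60 stayed above TICAM1 in every silenced library, at 23.6, 22.4 and 21.3 against 16.8, 18.5 and 15.3 CPM. The place of DDX60 under TICAM1 thus rests on exon lengths of 6.75 kb for DDX60 and 2.676 kb for TICAM1. Which transcript forms were present was not tested. TLR3 was under its adaptor TICAM1 in both groups, at a ratio of 0.319 ± 0.00687 in shCTL and 0.0245 ± 0.00455 in shPBRM1 libraries. The ratio of DDX58 to MAVS was 0.323 ± 0.0183 and 0.0394 ± 0.00872. Between the adaptors, the ratio of MAVS to TICAM1 was 1.49 ± 0.0885 and 1.64 ± 0.151, with overlapping values.

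Set against the editing enzyme, IFIH1 was at 0.225 ± 0.0122 of the ADAR level per kilobase in shCTL and at 0.0152 ± 0.00460 in shPBRM1 libraries. EIF2AK2 kept more of its share, at 0.438 ± 0.0164 and 0.306 ± 0.00456, and its highest silenced library (0.311) lay under its lowest control (0.427). Each of these ratios to ADAR was lower in every silenced library than in any control.

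**Figure D4:**
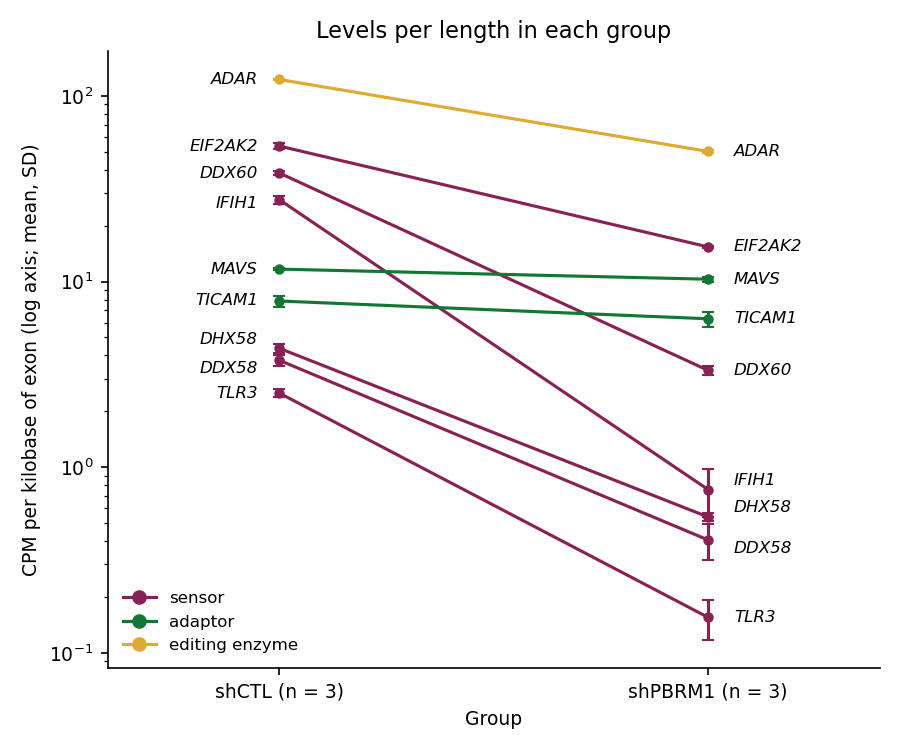
CPM per kilobase of exon (log axis) of 9 members in each group, as the mean and SD of 3 libraries, with a line joining the groups for each gene (ZBP1, at 0 in shPBRM1, is left out). The lines of IFIH1 and DDX60 cross those of MAVS and TICAM1, which stay nearly level.

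The other genes of these pathways were taken from lists that were written with earlier results of these data known, and are described by counts and medians. For all lists below, the shares over all genes tested were 9.68% lower and 2.87% higher past the fold. By the adjusted p alone they were 33.2% and 31.5%. Of 19 regulators of the RIG-I-like receptors, such as ubiquitin ligases and RNA-binding cofactors, 2 fell by more than 2-fold and 0 rose, near the share over all genes. These were NLRC5, the activator of MHC class I genes (27.2 to 1.99 CPM, log2 fold change -3.76, adjusted p = 3.47e-20), and the antiviral RNA-binding protein ZC3HAV1 (189 to 82.3 CPM, -1.20, adjusted p = 2.91e-18). By the adjusted p alone, 7 were lower and 7 higher, and the median log2 fold change was -0.0041. The most abundant others were G3BP1, a stress granule protein (660 to 800 CPM, 0.28), and YWHAE, which escorts RIG-I to the membrane (370 to 497 CPM, 0.43). TRIM25, the ubiquitin ligase of RIG-I, was chosen after its values were seen. It was at 234 and 123 CPM, a log2 fold change of -0.93 that missed the fold set here.

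Of 16 kinases, adaptors and transcription factors that act below MAVS and TICAM1, 1 fell past the fold and 0 rose. This was IRF7, an interferon-inducible transcription factor, at 13.6, 13.6 and 7.26 CPM in shCTL and 1.33, 1.39 and 1.07 CPM in shPBRM1 libraries (log2 fold change -3.19, adjusted p = 1.38e-12). The third control library was lower than the other two. The kinase TBK1, which both adaptors use, was at 56.0 ± 1.57 and 59.5 ± 3.09 CPM (log2 fold change 0.09, 95% interval -0.000084 to 0.18, adjusted p = 0.0743). The factor IRF3, chosen after its values were seen, was at 52.3 ± 1.36 and 55.1 ± 4.83 CPM (0.07, 95% interval -0.03 to 0.18, adjusted p = 0.232). By the adjusted p alone, 9 of the 16 were lower and 2 higher, with a median of -0.26.

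The effectors that themselves bind double-stranded RNA or act on its signal varied widely. A list of 6 genes was drawn around 2-5A, the oligoadenylate that OAS enzymes make on sensing double-stranded RNA. Not every gene on it makes or degrades 2-5A. Of the 6, 4 fell past the fold and 0 rose, with a median log2 fold change of -6.72. OAS1 had 7892, 10302 and 10486 counts in shCTL libraries and 10, 5 and 2 in shPBRM1 libraries (log2 fold change -10.94, adjusted p = 6.69e-29), so few that the size of the fold depends on single counts. OAS2 went from 890 ± 3.89 to 0.483 ± 0.222 CPM (-10.78, adjusted p = 7.7e-28). OASL went from 120.6 ± 4.65 to 1.13 ± 0.0308 CPM (-6.73, adjusted p = 4.24e-28). The other called gene, OAS3 (-6.71), lies outside the naming rule and was chosen after its values were seen. The ribosome recycling factor ABCE1 was higher under the fold (113 to 179 CPM, 0.66), and PDE12, which degrades 2-5A, was at 52.8 and 52.3 CPM (-0.01).

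Among 11 tested genes for other double-stranded RNA-binding and processing proteins, 0 passed the fold in either direction. By the adjusted p alone 3 were lower and 7 higher, with a median log2 fold change of 0.19. The most abundant were STAU1 (260 to 297 CPM, 0.19), and ZFR, which did not pass the test (160 and 154 CPM, -0.06, adjusted p = 0.17). DICER1, the nuclease of microRNA maturation and the largest change of this list, was at 66.9 ± 1.87 CPM in shCTL and 122 ± 3.05 CPM in shPBRM1 libraries (0.87, adjusted p = 4.24e-16). It was chosen after its values were seen.

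Around eIF2 alpha, the substrate of PKR, 1 of 7 genes fell past the fold, from a list of eIF2 alpha itself, its other kinases, regulatory phosphatase subunits and the PKR inhibitor DNAJC3. This was PPP1R15A, the stress-induced phosphatase subunit (128 ± 4.46 to 52.5 ± 3.77 CPM, log2 fold change -1.29, adjusted p = 1.32e-17). EIF2AK1, another eIF2 alpha kinase, was at 296 ± 2.62 and 301 ± 1.89 CPM (0.03, adjusted p = 0.52), and the substrate gene EIF2S1 was at 221 ± 5.53 and 220 ± 4.47 CPM (-0.01, adjusted p = 0.812). By the adjusted p alone, 1 of the 7 was lower and 2 were higher, and the median of the list was 0.03. The 2 higher were the kinase gene EIF2AK4 (76.3 to 105 CPM, 0.46) and DNAJC3 (120 to 147 CPM, 0.30). Both were chosen after their values were seen. Of the 4 tested cell death partners of ZBP1, MLKL, the executor of necroptosis, fell from 60, 51 and 54 counts to 5, 0 and 3 (-4.59, adjusted p = 1.51e-08), close to the floor. CASP8 (41.9 to 22.0 CPM, -0.93) and RIPK1 (65.8 to 48.0 CPM, -0.45) were lower under the fold. RIPK3, the kinase upstream of MLKL, had 0 counts in all controls and 1, 0 and 8 in the silenced libraries and was not tested.

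Of the other Toll-like receptors and their adaptors, 7 of 13 genes could be tested, 2 fell past the fold and 0 rose. They were MYD88, the adaptor that TLR3 does not use (39.2 ± 1.92 to 15.3 ± 0.258 CPM, log2 fold change -1.36, adjusted p = 2.12e-15), and UNC93B1, which carries TLR3 and other receptors to endosomes (42.8 ± 2.27 to 17.4 ± 2.02 CPM, -1.30, adjusted p = 9.11e-14). TIRAP (3.40 and 4.01 CPM, 0.25, adjusted p = 0.0903) and TLR6 (3.48 and 3.81 CPM, 0.14, adjusted p = 0.414) did not pass the test. By the adjusted p alone, 3 of the 7 were lower and 0 higher, with a median log2 fold change of -0.52. TLR5 was lower under the fold (4.40 to 2.21 CPM, -0.99, adjusted p = 5.25e-07) and was chosen after its values were seen.

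Of 9 interferon and chemokine genes, most of them known targets of these sensors, 4 could be tested and 3 fell. CXCL10, a chemokine for T cells, had 231, 298 and 300 counts in shCTL and 2, 2 and 4 in shPBRM1 libraries (log2 fold change -6.88, adjusted p = 4.62e-17). IFNB1, the gene of interferon beta, had 26, 54 and 54 counts in shCTL and 2, 4 and 0 in shPBRM1 libraries (-4.60, adjusted p = 1.32e-07). CCL5 went from 17.9 ± 0.488 to 0.901 ± 0.0924 CPM (-4.29, adjusted p = 7.17e-20). The silenced values of CXCL10 and IFNB1 were at or near the floor, where the size of a fold depends on single counts. CXCL10 and IFNB1 reached the count filter through the shCTL libraries alone. A call of higher was thus not open to them, and the 3 that fell are to be read with this limit. IFNE, an interferon gene not known for induction by these sensors, was at 0.453 and 0.357 CPM (-0.27, adjusted p = 0.55).

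The helicase members were also set against the other DDX and DHX genes. Of 52 tested among 86 rows with such symbols, 2 fell past the fold and 0 rose, with a median log2 fold change of -0.044. The rows were taken by symbol alone and include pseudogene and antisense rows, such as DDX50P1, DDX55P1 and DDX11-AS1 among those tested. Those that fell were DDX60L, described above, and DDX39B, which had 32, 31 and 31 counts in shCTL and 17, 11 and 26 in shPBRM1 libraries (-1.08, adjusted p = 0.00876). DDX39B rests on low counts, whereas DDX58, IFIH1, DHX58 and DDX60 all fell past the fold with at least 630 counts in each control library.

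**Figure D5:**
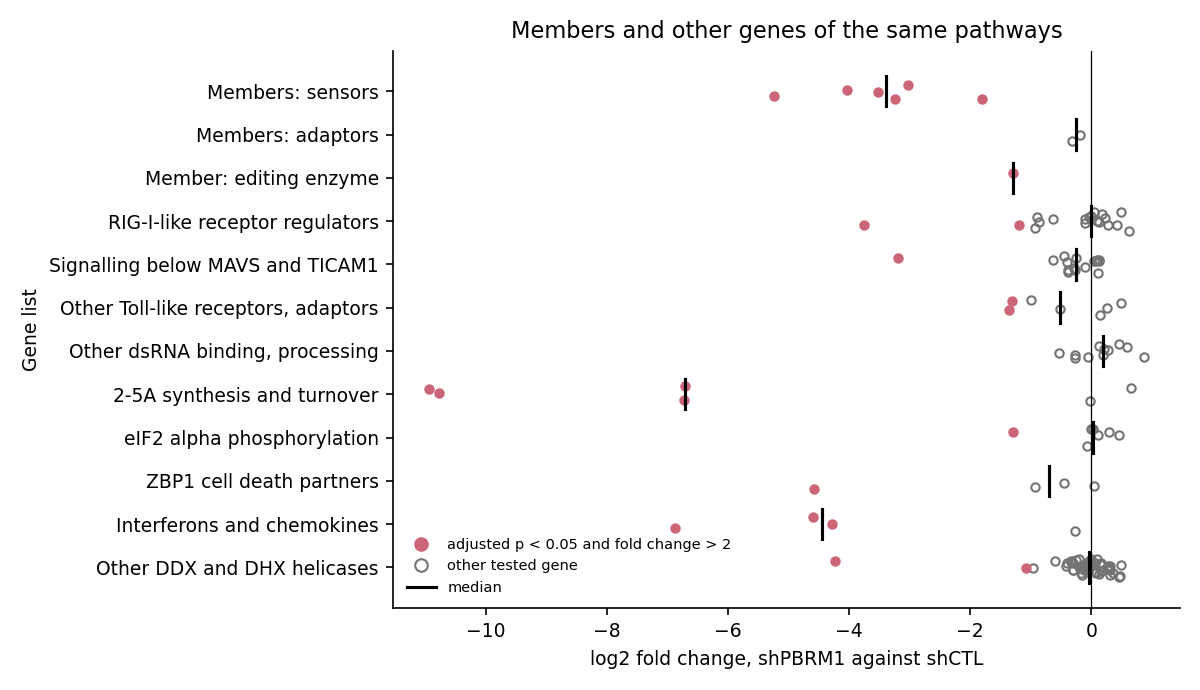
Log2 fold change, shPBRM1 against shCTL, of the tested members by class and of the tested genes in 9 lists of related genes, with filled points for genes past the test and the fold, open points for the others, and black bars for medians. The sensors (median -3.39), the list drawn around 2-5A (-6.72) and the interferons and chemokines (-4.45) lie to the left, and the medians of the other 7 lists of related genes lie between -0.69 and 0.19.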

How the data were processed

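Total RNA of 6 BT-549 cultures was sequenced, 3 per group. The values are raw counts by gene symbol as the authors deposited them, and their processing notes name CASAVA 1.8.2, STAR 2.7.9a, featureCounts, DESeq2 1.24.0 and GRCh38.p7; annotation and strand setting are not given in the sources used here. Control columns, which carry no group word, were matched to samples by cell line and number. Of 37887 rows, 14 held dates as symbols.

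Counts were TMM-normalized and tested with edgeR 4.0.16 (R 4.3.3; filterByExpr, quasi-likelihood, Benjamini-Hochberg over 15450 genes, group as the only term). The SE is that of the difference of replicate log2 CPM (prior count 2), whereas intervals (95%) were derived from the F statistic of the test against no change. They are approximate, and those of IFIH1, DDX58 and TLR3 are narrower than their SEs would give. Floors (3 counts) cover counting error only. Members and lists were chosen with earlier results of these data known. From each list, up to 3 called genes with the largest change and up to 2 of the most abundant others were named; 2 list genes are not reported here and were left out of the lists. Exon lengths came from GENCODE version 29. Same-numbered libraries deviated together across 5622 genes with mean log2 CPM above 5 (correlations 0.734, 0.593 and 0.419). However, shCTL library 2 correlated with shPBRM1 library 3 at 0.464, above the third pair. Whether the numbers, from the titles, pair the libraries is thus not settled. The main fit left them out, and a block by number was 1 of the alternatives. Alternatives were other normalizations, DESeq2 1.42.0, other filters and thresholds, the replicate block and leaving out each library.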

Additional observations from a re-analysis of the deposited data

How the results depend on the processing

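The log2 fold changes of the 9 tested members kept their direction and their side of the adjusted p under all 12 alternatives refitted for them. MAVS ranged from -0.23 to -0.16 (largest adjusted p 0.00418) and TICAM1 from -0.39 to -0.26 (0.0104). The 7 members called lower became 8 with DESeq2 and with no count filter, both of which added ZBP1, and 9 with no fold minimum, which added MAVS and TICAM1. With the replicate block the count was 7, MAVS was at -0.18, and no call among the members changed, nor did one with a test against the 2-fold change itself (glmTreat) or with each library left out. No member was called higher under any of these settings. Calls among the pathway lists were 16 lower, and 14 to 18 under the alternatives. The sensors minus adaptors difference of -3.07 was -3.33 with a prior count of 0.5 and -3.20 with only the sensors that passed the filter, since ZBP1 has few counts, and -3.11 to -3.02 with each library left out. With genes of at least 50 counts on average, calls over all genes were 941 lower and 270 higher instead of 1496 and 443. Scaling by library size alone moved the median of all genes to -0.056. Depth limits ZBP1, MLKL, IFNB1, CXCL10 and OAS1, which were at or near the floor in silenced libraries. Of these, MLKL, IFNB1, CXCL10 and OAS1 reached the count filter through the shCTL libraries alone, so a call of higher was not open to them.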
